A study of Mus musculus with 12 samples.

Results

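The genes described here are 9 genes of erythropoietin (EPO) signalling, taken by symbol from the deposited tables: Epor, Jak2, Stat5a, Stat5b, Stat3, Cish, Socs2, Socs3 and Pim1. All 9 were among the 32699 genes measured by RNA sequencing. A gene was tested when it had more than 10 CPM (counts scaled by library total) in at least 2 of the 12 libraries, which 8273 genes met. Levels in CPM below are also scaled by TMM, which corrects for the make-up of each library. Of the 9 genes, 8 passed, each with more than 10 CPM in all 12 libraries, and Socs3 did not pass.

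The cells were G1E-ER4, a mouse erythroid line derived from embryonic stem cells without Gata1, in which GATA-1 fused to the estrogen receptor is switched on by β-estradiol (E2). The groups were TMG_E2 (10 µM Thiamet-G and 1 µM E2), E2 (1 µM E2), TMG (10 µM Thiamet-G) and Ctrl (untreated), with 3 libraries each and treatments of 30 h. Thiamet-G (TMG) inhibits OGA, the enzyme that takes the sugar O-GlcNAc off proteins. All groups carry the fusion, were used at passages 35 to 40, and grew with 2.5 U/ml mouse EPO and 50 ng/ml stem cell factor, so no group lacked the receptor's ligand. The study used 1 line, and no cells without the fusion were given E2, so effects of E2 outside GATA-1 cannot be told apart. The labels do not state whether the 3 replicates of a group grew as separate cultures. The p-values therefore rest on the variation among libraries, which may be technical.

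EPO is the hormone that keeps erythroid progenitors alive and dividing. It binds its receptor EPOR, on which the kinase JAK2 then phosphorylates the transcription factors STAT5A and STAT5B, and these switch on target genes. Among the targets are feedback inhibitors of the pathway (Cish, Socs2 and Socs3) and the survival kinase gene Pim1. STAT5A is known to carry O-GlcNAc, but only RNA was measured here.

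The libraries held 17589400 to 23178700 expected counts. The summed level of 5 erythroid marker genes was 3390 to 3590 CPM in TMG_E2, 3680 to 3910 CPM in E2, 91.6 to 97.2 CPM in TMG and 74.7 to 80.9 CPM in Ctrl libraries. Although embryonic stem cell is the cell type given in the labels, Pou5f1, Sox2 and Zfp42 had 0 counts in all libraries and Nanog reached at most 0.281 CPM. Of 5 mast cell markers 3 passed the filter, and their list summed to 0.321 to 0.599 CPM in TMG_E2, 0.280 to 0.910 CPM in E2, 77.5 to 93.9 CPM in TMG and 76.8 to 100 CPM in Ctrl libraries, with Mcpt8 at 0 throughout. These sums were mostly Il1rl1, which had 67.3 ± 3.48 CPM in TMG and 56.6 ± 2.36 CPM in Ctrl libraries. Cpa3 (8.41 ± 2.67 against 15.2 ± 5.97) and Ms4a2 (9.5 ± 2.40 against 14.7 ± 4.19) were lower in TMG on average, with overlapping libraries. The part of such markers in the results was not tested. In bulk RNA, fewer cells of a type and less RNA per cell cannot be told apart.

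Sequences upstream of the starts were searched for sites that GATA and STAT factors are known to bind, because E2 activates the GATA-1 fusion and EPO is known to act through STAT5. RefSeq (GRCm38.p6) gave at least 1 start for 8 of the 9 genes, all but Socs2, and the 250 bases before each start were read. The GATA motif was AGATAA (or with G as its last base, or T as its first) and the STAT motif was TTCNNNGAA, each searched on both strands. Epor (chr9:21963577-21963826, minus strand) held 1 GATA match, 54 to 49 bases before the start, and Socs3 (chr11:117969367-117969616, minus strand) held 1 STAT match, 154 to 146 bases before it. Both are shown 5′ to 3′ with the match in capitals, since they are the windows of these genes that hold a match.
Epor: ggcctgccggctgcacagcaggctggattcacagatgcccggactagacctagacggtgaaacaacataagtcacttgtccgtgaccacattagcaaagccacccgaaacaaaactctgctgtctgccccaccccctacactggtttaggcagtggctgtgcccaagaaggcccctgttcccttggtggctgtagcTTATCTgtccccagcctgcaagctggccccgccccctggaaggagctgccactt
Socs3: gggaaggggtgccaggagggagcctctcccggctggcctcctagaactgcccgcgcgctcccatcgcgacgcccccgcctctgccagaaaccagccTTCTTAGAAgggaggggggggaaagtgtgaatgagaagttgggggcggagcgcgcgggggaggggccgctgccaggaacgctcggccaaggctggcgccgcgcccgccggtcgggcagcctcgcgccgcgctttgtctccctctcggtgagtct

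Of 32851 such windows, 26.5% held a GATA match and 7.02% a STAT match. A match is a description of letters only. The motifs do not overlap in either window, and the other genes' windows held neither.

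Per transcript length, the order of the 9 genes differed between the groups. In deposited TPM (transcript abundance scaled for length and library total), Pim1 was the highest in TMG_E2 libraries (283 ± 6.86, SD, n = 3) and E2 libraries (272 ± 3.34), while Epor, Socs2 and Stat5a were above it in TMG (70.7 ± 4.10) and in Ctrl libraries (57.3 ± 7.37). It took 46.5% ± 0.058 of the summed TPM of the 9 genes in TMG_E2, 46.0% ± 0.71 in E2, 14.7% ± 0.45 in TMG and 12.4% ± 1.1 in Ctrl libraries. Epor was the second highest in TMG_E2 (114 ± 4.26 TPM), E2 (123 ± 6.23 TPM) and Ctrl libraries (87.7 ± 0.638 TPM) and the highest in TMG libraries (90.8 ± 0.408 TPM). Stat5a was the highest in Ctrl libraries (93.5 ± 3.11 TPM) and next to lowest in TMG_E2 libraries (20.6 ± 0.834 TPM). Socs3 was the lowest in every group, at 0.790 ± 0.244 TPM in TMG_E2, 0.467 ± 0.150 in E2, 0.943 ± 0.319 in TMG and 0.590 ± 0.364 in Ctrl libraries. Some neighbours in this order had overlapping library values: Socs2 with Stat3 and Stat3 with Jak2 in TMG_E2 and in E2, Stat5a with Cish in E2, Socs2 with Stat5a and Stat5b with Stat3 in TMG, and Pim1 with Stat5b in Ctrl.

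**Figure D1:**
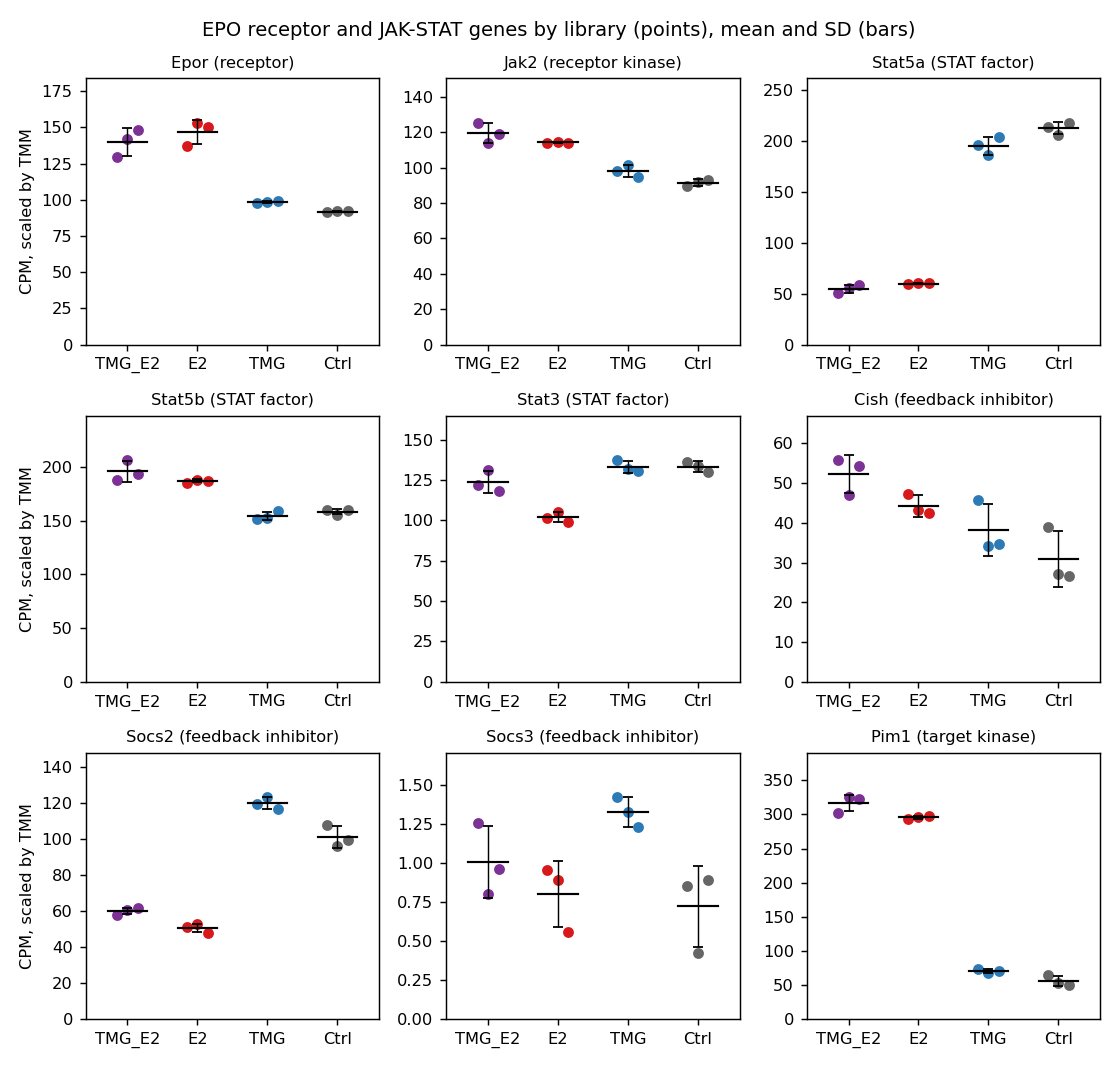
Level of each of the 9 genes in every library (points), in CPM scaled by TMM, by group, with the group mean (long bar) and SD (error bar, n = 3), each axis starting at 0. Pim1 is high and Stat5a and Socs2 are low in the libraries with E2, and Socs3 lies at or below 1.42 CPM in all libraries.

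In cells without TMG, E2 was set against Ctrl. All 8 tested genes changed: Epor, Jak2, Stat5b, Cish and Pim1 rose, and Stat5a, Stat3 and Socs2 fell. In edgeR's quasi-likelihood test 82.7% of all genes were called, 41.5% higher and 41.2% lower, so a count of 8 of 8 is near that of genes at large. The groups did not overlap for 8 of 8, against 85.9% of all genes. The median log2 fold change of the 8 was 0.28, and that of all genes was -0.001.

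The comparison of TMG_E2 with TMG gave the effect of E2 in cells given TMG. The same 5 genes rose and the same 3 fell, beside 82.7% of all genes called, 40.9% higher and 41.8% lower. The groups did not overlap for 7 of the 8 genes, all but Stat3, against 81.8% of all genes. The median was 0.31 for the 8 genes and -0.01 for all. It shares no libraries with E2 against Ctrl.

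For TMG, 2 of the 8 genes were called in each setting. The comparisons with TMG share libraries with those for E2. In TMG against Ctrl, 2 of 8 rose, Socs2 and Pim1, where 5.15% of all genes were called, 3.01% higher and 2.14% lower. Groups did not overlap for 5 of 8, against 28.7% of all genes. In TMG_E2 against E2, 2 of 8 rose, Socs2 and Stat3, where 12.8% were called, 5.61% higher and 7.14% lower. Groups did not overlap for 4 of 8, against 28.5% of all genes. Medians of the 8 were 0.10 and 0.08, beside 0.003 and 0 for all genes. Higher genes made up 58.5% of the calls in TMG against Ctrl and 44.0% in TMG_E2 against E2, but 43.6% and 31.3% when library size alone set the scale. Socs2, Pim1 and Stat3 remained called under that scale.

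**Figure D2:**
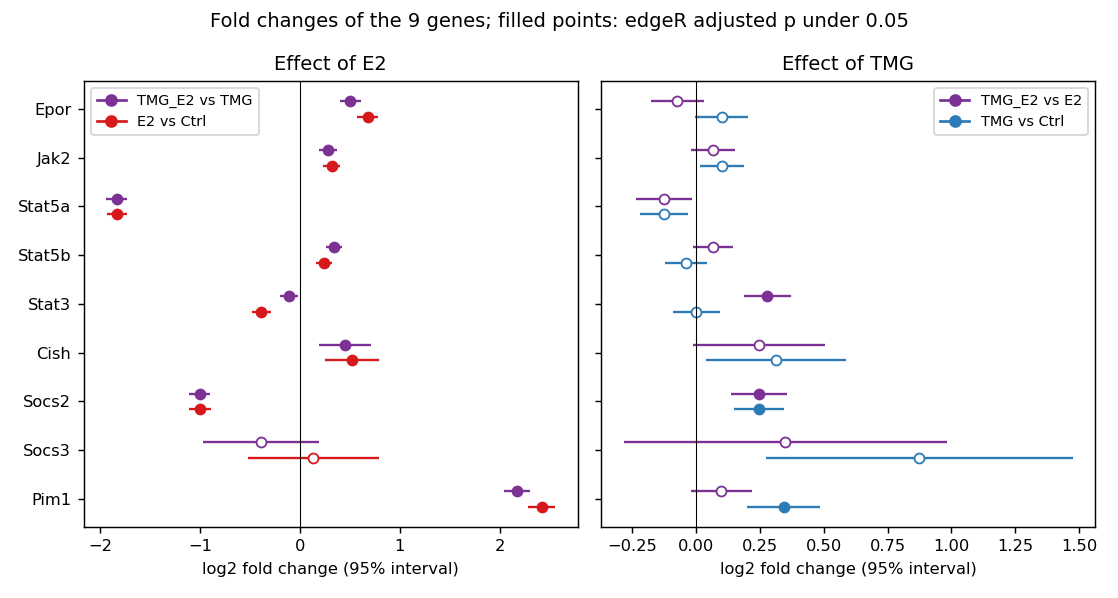
Log2 fold changes of the 9 genes with 95% intervals, for E2 (left; with TMG, purple, and without, red) and for TMG (right; with E2, purple, and without, blue), filled where the edgeR adjusted p is under 0.05. Socs3 comes from the fit without the expression filter. Pim1 lies at 2.17 and 2.42 for E2, and Stat5a at -1.83 in both.

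Epor encodes the receptor (chromosome 9, 21958897 to 21963576, GRCm38). Its level was 138, 153 and 150.3 CPM in E2 libraries, against 91.5, 92.1 and 92.2 CPM in Ctrl libraries. Every E2 library lay above every Ctrl library, and Epor rose with E2 by log2 0.68 ± 0.05 (SE; fold 1.60, adjusted p = 6.30e-10). With TMG present it was 129.5, 142 and 148 CPM in TMG_E2 libraries, against 97.6, 98.6 and 99.4 CPM in TMG libraries. This rise was log2 0.51 ± 0.05 (adjusted p = 3.70e-08), and the groups again did not overlap. TMG left Epor at log2 0.10 ± 0.05 in TMG against Ctrl (95% interval -0.01 to 0.20, adjusted p = 0.300) and at -0.07 ± 0.05 in TMG_E2 against E2 (-0.17 to 0.03, adjusted p = 0.346). The TMG libraries lay just above the Ctrl libraries, while the TMG_E2 and E2 libraries overlapped.

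Jak2, the kinase bound to the receptor (chromosome 19, 29251803 to 29313095), moved in the same direction with E2 and by less. E2 libraries had 114, 115 and 114 CPM, against 89.5, 92.1 and 93.3 CPM in Ctrl libraries. Jak2 rose by log2 0.32 ± 0.04 (fold 1.25, adjusted p = 1.33e-06). TMG_E2 libraries had 125, 114 and 119 CPM, against 98.4, 102 and 94.8 CPM in TMG libraries, a rise of log2 0.28 ± 0.04 (adjusted p = 5.77e-06). With library size alone this rise was log2 0.18 (adjusted p = 0.000756). In deposited TPM the gap was smaller still and the groups overlapped, with 32.8 ± 2.37 in TMG_E2 and 30.6 ± 1.15 in TMG libraries. Neither effect of TMG on Jak2 was called (log2 0.10 ± 0.04, adjusted p = 0.181, in TMG against Ctrl; 0.07 ± 0.04, adjusted p = 0.317, in TMG_E2 against E2). In TPM, Epor stood at 3.50 ± 0.36 times Jak2 in TMG_E2, 3.83 ± 0.21 times in E2, 2.97 ± 0.12 times in TMG and 2.98 ± 0.051 times in Ctrl libraries.

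The STAT genes did not move together. Stat5a, Stat5b and Stat3 lie next to each other on chromosome 11. Stat5a is at 100859351 to 100885169, Stat5b at 100780731 to 100859004 and Stat3 at 100886806 to 100939594. Stat5a and Stat5b encode close copies of the factor that EPO activates, while STAT3 is better known from cytokines that signal through IL6ST.

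Stat5a fell to 59.0, 60.1 and 60.3 CPM in E2 libraries, against 214, 206 and 218 CPM in Ctrl libraries. The change was log2 -1.83 ± 0.05 (3.55-fold lower, adjusted p = 6.52e-16), and 2.49% of all genes had a lower log2 fold change. In cells given TMG the libraries were as far apart, with 50.8, 55.8 and 58.3 CPM in TMG_E2, against 196, 186 and 204 CPM in TMG libraries (log2 -1.83 ± 0.05, adjusted p = 7.79e-16). The difference between these 2 changes was log2 -0.002 ± 0.068 (95% interval -0.15 to 0.14). For TMG, Stat5a was at log2 -0.12 ± 0.04 in TMG against Ctrl (adjusted p = 0.123) and at -0.13 ± 0.05 in TMG_E2 against E2 (adjusted p = 0.122), neither of them called. Groups did not overlap in either comparison, and the first was called when only the groups compared were fitted (adjusted p = 0.0403), the second without TMG_E2 replicate 3 (log2 -0.17, adjusted p = 0.0397). Without TMG_E2 replicate 1 the second was log2 -0.06 (adjusted p = 0.441).

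Stat5b went the other way with E2. It had 186, 188 and 187 CPM in E2 libraries, against 159.7, 156 and 160.2 CPM in Ctrl libraries, a rise of log2 0.24 ± 0.04 (18.0% higher, adjusted p = 1.66e-05). With TMG it had 188, 207 and 193 CPM in TMG_E2 libraries, against 152, 152 and 159 CPM in TMG libraries (log2 0.34 ± 0.04, adjusted p = 2.09e-07). The groups did not overlap in either case. The rise against Ctrl was log2 0.14 with library size alone (adjusted p = 0.00281). In TPM, which holds no TMM scaling, the gap was also smaller, with 54.0 ± 0.04 in E2 and 52.3 ± 1.17 in Ctrl libraries. TMG gave log2 -0.04 ± 0.04 (adjusted p = 0.643) in TMG against Ctrl and 0.07 ± 0.04 (adjusted p = 0.273) in TMG_E2 against E2.

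Stat5a was the minor part of the Stat5 transcripts in libraries with E2 and the major part in those without. Its share of Stat5a plus Stat5b TPM was 27.2% ± 1.3 in TMG_E2, 29.8% ± 0.15 in E2, 62.7% ± 0.70 in TMG and 64.1% ± 0.30 in Ctrl libraries. The share in E2 was 34.3 points under that in Ctrl, and in TMG_E2 it was 35.5 points under that in TMG. The groups did not overlap in these or in TMG against Ctrl (1.41 points lower) and TMG_E2 against E2 (2.63 points lower). An exact two-sided permutation test of 3 libraries against 3 gave p = 0.1 for each of these 4 comparisons, the smallest p that 20 splits allow. Counts of Stat5a plus Stat5b together fell with E2 (log2 -0.59 ± 0.04, adjusted p = 1.94e-10, against Ctrl; -0.48 ± 0.04, adjusted p = 3.38e-09, in TMG_E2 against TMG). The division of reads between the copies is uncertain, since 14.7% of the 50-base stretches of Stat5a transcripts also occur in Stat5b and 11.1% of those of Stat5b occur in Stat5a (GENCODE vM21), and neither gene had whole counts in any of the 12 libraries.

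**Figure D3:**
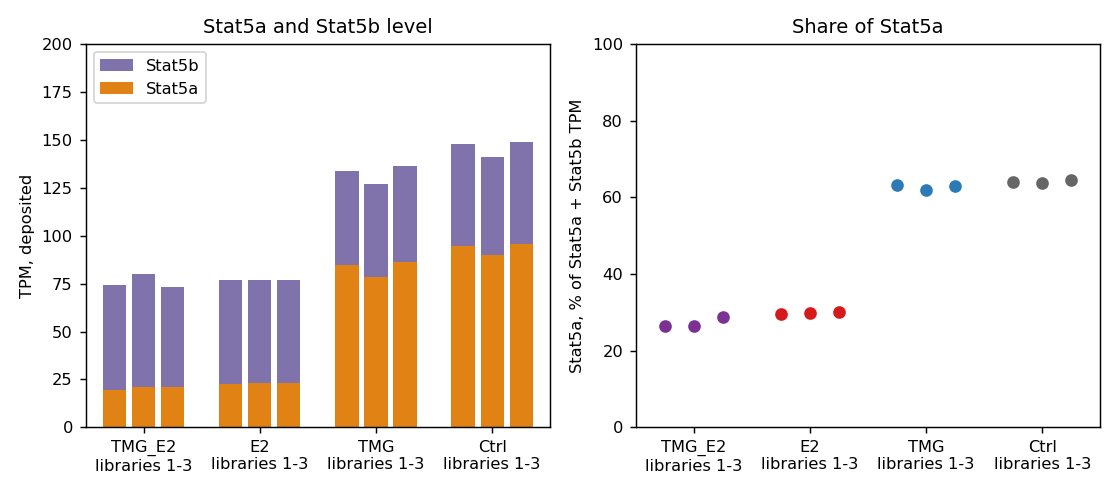
Left, deposited TPM of Stat5a (orange) and Stat5b (purple) stacked for each library; right, the share of Stat5a in their sum. The share is 26.4% to 30.0% in libraries with E2 and 61.9% to 64.4% in those without.

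Stat3 was lower with E2 alone. It had 102, 105 and 98.9 CPM in E2 libraries, against 136, 134 and 129.7 CPM in Ctrl libraries (log2 -0.38 ± 0.04, adjusted p = 2.70e-07). Given with E2, TMG raised it: TMG_E2 libraries had 122, 131 and 118 CPM, all above the E2 libraries (log2 0.28 ± 0.04, fold 1.21, adjusted p = 0.000818). Without E2, Stat3 had 137, 132 and 130.5 CPM in TMG libraries, and these overlapped the Ctrl libraries (log2 0.001 ± 0.043, 95% interval -0.09 to 0.09, adjusted p = 0.995). The TMG effect with E2 minus that without was log2 0.28 ± 0.06 (adjusted p = 0.0452), the only such difference called among the 8 tested genes. Of all genes 0.931% were called in that test, 0.266% higher and 0.665% lower. That call was lost in 12 of 18 alternative fits: with library size alone, with filterByExpr, and without any single library except TMG_E2 replicate 1 or 3. The difference lay between log2 0.24 and 0.31 in the 18 fits (adjusted p = 0.00586 to 0.137). In TMG_E2 against TMG, Stat3 fell by log2 -0.11 ± 0.04 (adjusted p = 0.0303), with overlapping groups, and this call was lost in 7 of 13 alternatives. Among these were the fits without TMG_E2 replicate 1 (log2 -0.09, adjusted p = 0.0986) or 3 (-0.07, adjusted p = 0.134) and without TMG replicate 1 (-0.08, adjusted p = 0.125) or 2 (-0.10, adjusted p = 0.0593). The fall was larger with library size alone (log2 -0.20, adjusted p = 0.000582), and in deposited TPM the groups did not overlap, with 34.78 to 41.01 in TMG_E2 and 45.4 to 48.76 in TMG libraries. Stat3 and Stat5a overlap by 72 bases at their ends on opposite strands, and the sources do not state a strand setting for the counting.

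Cish, a STAT5 target whose protein binds the activated receptor (chromosome 9, 107296659 to 107302784), was higher with E2. It had 47.4, 43.1 and 42.4 CPM in E2 libraries, against 39.0, 27.0 and 26.7 CPM in Ctrl libraries. All E2 libraries lay above the Ctrl libraries, where replicate 1 stood apart from the others, and Cish rose by log2 0.52 ± 0.13 (adjusted p = 0.00123). With TMG present it had 55.8, 46.9 and 54.4 CPM in TMG_E2 libraries, against 45.8, 34.3 and 34.7 CPM in TMG libraries (log2 0.45 ± 0.12, adjusted p = 0.00294). Replicate 1 had the most Cish in each of the 4 groups. In deposited TPM the gaps were smaller and the groups overlapped, with 20.54 to 23.27 in E2 and 14.94 to 21.82 in Ctrl libraries, and 22.56 to 27.56 in TMG_E2 and 18.4 to 25 in TMG libraries.

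For TMG, Cish was at log2 0.31 ± 0.13 in TMG against Ctrl (95% interval 0.04 to 0.59, adjusted p = 0.190). Without Ctrl replicate 1 it was called (log2 0.51, adjusted p = 0.0213), as it was with no expression filter (adjusted p = 0.00993). Without TMG replicate 1 it was log2 0.16 (adjusted p = 0.598), the lowest value of the 13 alternatives. In TMG_E2 against E2 it was at log2 0.25 ± 0.12 (-0.01 to 0.50, adjusted p = 0.205). With the replicate number as a block, which paired these libraries, Cish was called there (log2 0.23, adjusted p = 0.0328), as it was with no filter (adjusted p = 0.0270). An antisense gene, Gm17041, overlaps Cish by 1459 bases in GENCODE vM21 and has no entry of its own in the files.

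Socs2, another inhibitor of cytokine signalling (chromosome 10, 95383903 to 95417321), went opposite to Cish with E2. It fell to 51.3, 52.6 and 47.9 CPM in E2 libraries, against 108, 96.2 and 99.5 CPM in Ctrl libraries (log2 -0.999 ± 0.050, adjusted p = 4.11e-12). With TMG it fell to 58.1, 60.4 and 61.8 CPM in TMG_E2 libraries, against 119.9, 124 and 117 CPM in TMG libraries (log2 -1.0 ± 0.05, adjusted p = 3.12e-12). Socs2 thus fell by 50% in both settings, and the groups lay far apart.

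TMG raised Socs2 both with and without E2. TMG libraries lay above Ctrl libraries (log2 0.25 ± 0.05, 18.6% higher, adjusted p = 0.00585), and TMG_E2 libraries lay above E2 libraries (log2 0.25 ± 0.05, 18.6% higher, adjusted p = 0.00600). The difference between the effects was log2 -0.001 ± 0.072 (95% interval -0.15 to 0.15, adjusted p = 0.999). Both rises were called in all 13 alternatives tried for each, with a highest adjusted p of 0.0387 and 0.0383. The TPM of Cish relative to Socs2 was 0.642 ± 0.069 in TMG_E2, 0.645 ± 0.037 in E2, 0.235 ± 0.040 in TMG and 0.223 ± 0.037 in Ctrl libraries.

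Socs3, the third inhibitor (chromosome 11, 117966079 to 117970336), was barely detected. Over 3 libraries each it had 59 counts in TMG_E2, 47 in E2, 78 in TMG and 47 in Ctrl libraries. Per library this was 1.25, 0.802 and 0.958 CPM in TMG_E2, 0.956, 0.888 and 0.556 CPM in E2, 1.42, 1.33 and 1.23 CPM in TMG, and 0.852, 0.425 and 0.889 CPM in Ctrl. The TMG libraries lay above all Ctrl libraries, while the other groups overlapped those they were set against. In a fit without the filter, TMG against Ctrl was at log2 0.87 ± 0.30 (95% interval 0.27 to 1.48, adjusted p = 0.0999), and no comparison was called. At 9 to 30 counts a library, small differences in Socs3 were not detectable.

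Pim1, a target gene whose kinase supports survival of blood cells (chromosome 17, 29490785 to 29496111), had the largest change of the 9. It had 294, 296 and 297 CPM in E2 libraries, against 63.8, 52.2 and 50.1 CPM in Ctrl libraries. The rise was log2 2.42 ± 0.06 (fold 5.34, adjusted p = 6.54e-16), and 1.51% of all genes had a higher log2 fold change. In cells given TMG it had 303, 326 and 322 CPM in TMG_E2 libraries, against 72.6, 67.8 and 70.0 CPM in TMG libraries (log2 2.17 ± 0.06, fold 4.51, adjusted p = 2.14e-15). The groups lay far apart in both.

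TMG raised Pim1 in cells without E2, where every TMG library lay above every Ctrl library (log2 0.34 ± 0.07, 26.9% higher, adjusted p = 0.00682). In cells with E2 the TMG_E2 libraries also lay above the E2 libraries, but the change of log2 0.10 ± 0.06 was not called (adjusted p = 0.281). The effects differed by log2 -0.24 ± 0.09 (95% interval -0.43 to -0.06, adjusted p = 0.260). Without Ctrl replicate 1, the Ctrl library with the most Pim1, that difference was log2 -0.36 and was called (adjusted p = 0.0164). An antisense gene, Gm26885, overlaps Pim1 by 1173 bases.

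Genes with a similar pattern were ranked by Pearson's correlation of log2(CPM + 1) over the 12 libraries, which fall apart by E2. Arfgap3 (r = 0.9947), Ube2v1 (r = 0.9901) and Plin2 (r = 0.9897) were most like Epor. Plin2, a lipid droplet coat gene, had 582 ± 50.2 CPM in TMG_E2, 571 ± 41.5 in E2, 214 ± 2.78 in TMG and 190 ± 5.12 in Ctrl libraries. The nearest genes were Srek1ip1 for Jak2 (r = 0.9902), Slc48a1 for Stat5a (0.999), Rai1 for Stat5b (0.984), Tmem229b for Stat3 (0.924), Trim12c for Cish (0.924), Cyba for Socs2 (0.993) and AK051451 for Pim1 (0.999). The number of genes with r above 0.99 was 568 for Stat5a and 424 for Pim1, 2 each for Epor and Socs2, 1 for Jak2, and 0 for Stat3, Stat5b and Cish. Tmem229b followed Stat3 with 8.84 ± 1.85 CPM in TMG_E2, 5.46 ± 0.394 in E2, 11.6 ± 1.26 in TMG and 10.2 ± 1.09 in Ctrl libraries.

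Other genes of the pathway were taken from 5 lists of 69 genes in all, of which 54 were tested. With E2 against Ctrl, 20 rose and 27 fell, 87.0% of the 54 against 82.7% of all genes. With TMG, 3 rose and 1 fell in TMG against Ctrl (7.41%, against 5.15% of all genes). In TMG_E2 against E2, 8 rose and 4 fell (22.2%, against 12.8%). For TMG_E2 against TMG, 20 rose and 25 fell (83.3%, against 82.7%). Some of the 54 passed the filter only through libraries with E2, or only through those without. The direction of such genes with E2 was a condition of their being tested.

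Receptors and partners of EPOR showed the widest changes. Of 11 tested, 5 rose and 6 fell with E2, with a median log2 of -0.18. Of all genes, 41.5% were called higher and 41.2% lower. Csf2rb2 and Il6st passed the filter through libraries with E2 only, and Ifngr1 and Ifngr2 through libraries without E2 only. The direction of these genes with E2 was a condition of their being tested. Ifngr1 averaged 4.07 CPM in E2 and 13.9 CPM in Ctrl libraries, and Ifngr2 6.57 CPM in E2 and 28.2 CPM in Ctrl libraries. Csf2rb and Csf2rb2 encode beta chains of cytokine receptors, and the common beta chain has been reported to pair with EPOR. Csf2rb2 rose to 322 ± 41.5 CPM in E2, against 4.17 ± 1.66 CPM in Ctrl libraries (log2 6.25 ± 0.18, adjusted p = 1.49e-15). Csf2rb, picked after its values were seen, had 1216 ± 121 CPM in E2 and 23.9 ± 9.02 CPM in Ctrl libraries (log2 5.66 ± 0.18, adjusted p = 8.40e-15). In E2 libraries Csf2rb had 366 ± 38.8 TPM, above the 123 ± 6.23 TPM of Epor, while in Ctrl libraries it had 8.26 ± 3.24 TPM and Epor 87.7 ± 0.638 TPM. These copies share 17.1% of the 50-base stretches of Csf2rb, so their split is uncertain, and Csf2rb2 passed the filter through libraries with E2 only.

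Kit, the receptor of stem cell factor, fell to 93.8 ± 3.48 CPM in E2, against 474 ± 10.1 CPM in Ctrl libraries (log2 -2.34 ± 0.04, adjusted p = 5.09e-18). Tfr2, which encodes transferrin receptor 2, a partner of EPOR, fell to 14.03 ± 2.03 CPM in E2, against 197 ± 3.13 CPM in Ctrl libraries (log2 -3.82 ± 0.08); it was also picked after its values were seen. TMG lowered Tfr2 further in cells with E2, to 10.2 ± 1.83 CPM in TMG_E2 libraries (log2 -0.45 ± 0.11, adjusted p = 0.0132). The lists held 1 other receptor that fell there, Il6st (log2 -0.43 ± 0.10, adjusted p = 0.00976). Il6st had 7.97 ± 1.06 CPM in TMG_E2 and 10.8 ± 0.237 CPM in E2 libraries. It passed the filter through E2 libraries only, so a higher level in E2 was a condition of its being tested. In the same comparison Il4ra rose (log2 0.32 ± 0.09, adjusted p = 0.0246). The call of Il4ra was lost without E2 replicate 2 (adjusted p = 0.102) or 3 (0.0558), without TMG_E2 replicate 1 (0.0604) or 3 (0.0659), and with only the groups compared (0.0523).

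Among the other JAK and STAT genes, 4 of 6 tested rose and 2 fell with E2, beside 41.5% of all genes called higher and 41.2% lower. Jak1 had 201 ± 3.66 CPM in E2 and 136 ± 3.36 CPM in Ctrl libraries (log2 0.56 ± 0.04, adjusted p = 8.02e-11), while Jak3 fell by log2 -1.45 ± 0.08 (adjusted p = 3.41e-11). Jak3 averaged 6.31 CPM in TMG_E2, 7.10 in E2, 21.4 in TMG and 19.4 in Ctrl libraries. It passed the filter through libraries without E2 only, so a fall with E2 was a condition of its being tested. Stat6, the factor downstream of interleukin-4, rose with TMG in both settings (log2 0.14 ± 0.04, adjusted p = 0.0393, in TMG against Ctrl; 0.19 ± 0.04, adjusted p = 0.00546, in TMG_E2 against E2). The call in TMG against Ctrl was lost when any single library of the 6 was left out (adjusted p = 0.0701 to 0.180). It was also lost with library size alone (0.0973), with filterByExpr (0.0502) and with no filter (0.052). Tyk2, a Janus kinase, fell with TMG in cells with E2, to 49.1 ± 3.86 CPM in TMG_E2, against 62.4 ± 1.90 CPM in E2 libraries (log2 -0.34 ± 0.05, adjusted p = 0.000794).

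Of 13 tested negative regulators, 4 rose and 6 fell with E2, beside 41.5% of all genes called higher and 41.2% lower. Ptpn6, the phosphatase that turns off EPOR signalling, fell to 33.8 ± 3.65 CPM in E2, against 116 ± 5.28 CPM in Ctrl libraries (log2 -1.78 ± 0.07, adjusted p = 1.74e-13). Socs7 rose by log2 0.74 ± 0.05 (adjusted p = 5.81e-10). In TMG_E2 against E2, 2 of the 13 rose, Ptpn6 and Inpp5d, beside 5.61% of all genes called higher and 7.14% lower. The call of Ptpn6 (log2 0.29 ± 0.08, adjusted p = 0.0196) was lost with only the groups compared (adjusted p = 0.0521). It was also lost when E2 replicate 2 (0.0902), E2 replicate 3 (0.0614) or TMG_E2 replicate 1 (0.0605) was omitted. Inpp5d, the lipid phosphatase SHIP1, had 430 ± 13.6 CPM in TMG_E2 and 368 ± 7.72 CPM in E2 libraries (log2 0.22 ± 0.04, adjusted p = 0.00107). It was the only gene of the 54 whose TMG effect was called as different with and without E2 (log2 0.24 ± 0.05, adjusted p = 0.0452), beside 0.931% of all genes. That call was lost with library size alone, with filterByExpr and without any single library except TMG_E2 replicate 1 or 3 (log2 0.22 to 0.26).

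Adaptors and kinases next to the receptor split as well, with 3 of 13 higher, 6 lower and 4 not called for E2. Of all genes, 41.5% were called higher and 41.2% lower. Gab1, a docking protein, rose to 82.7 ± 1.86 CPM in E2, against 31.8 ± 0.339 CPM in Ctrl libraries (log2 1.38 ± 0.04, adjusted p = 1.27e-15). Vav1, an exchange factor for Rac, fell by log2 -2.00 ± 0.05 (adjusted p = 8.29e-16). With TMG and no E2, Gab1 rose (log2 0.16 ± 0.04, adjusted p = 0.0288) and the adaptor Grb2 fell (log2 -0.15 ± 0.04, adjusted p = 0.0196). Gab1 lost its call in each of the 6 fits that omit 1 library (adjusted p = 0.0688 to 0.136), and Grb2 without Ctrl replicate 2 (0.0545) or 3 (0.131) or TMG replicate 1 (0.0793) or 2 (0.0706). Gab1 also lost it with library size alone (adjusted p = 0.0586), with no filter (0.0937) and in DESeq2 (0.0964). In cells with E2, TMG raised 2 of the 13, among them Vav1 (log2 0.22 ± 0.06, adjusted p = 0.0208). Of all genes, 5.61% were called higher there and 7.14% lower. The call of Vav1 was lost without E2 replicate 2 (adjusted p = 0.0923) or TMG_E2 replicate 1 (0.0536), and with only the groups compared (0.0789).

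Of 11 tested genes known as EPO or STAT5 targets, 4 rose and 7 fell with E2. Of all genes, 41.5% were called higher and 41.2% lower. Id1, Osm and Pim3 passed the filter through libraries without E2 only, so their falls were a condition of their being tested. Id1 averaged 6.94 CPM in E2 and 22.4 CPM in Ctrl libraries, and Osm 9.21 CPM in E2 and 22.2 CPM in Ctrl libraries. Fam132b, which encodes erythroferrone, a hormone of iron supply, rose to 49.6 ± 3.77 CPM in E2, against 1.72 ± 0.432 CPM in Ctrl libraries (log2 4.84 ± 0.11, adjusted p = 1.19e-16), and passed the filter through libraries with E2 only. Ccnd2, a cyclin gene, fell to 267 ± 6.11 CPM in E2, against 547 ± 7.80 CPM in Ctrl libraries (log2 -1.04 ± 0.04, adjusted p = 1.67e-13). The kin of Pim1 went the other way, with Pim2 at log2 -0.34 (adjusted p = 0.00308) and Pim3 at log2 -0.90 (adjusted p = 7.41e-08). Pim2 was picked after its values were seen. Pim3 averaged 8.61 CPM in E2 and 16.1 CPM in Ctrl libraries. It passed the filter through libraries without E2 only, so its fall with E2 was a condition of its being tested.

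With TMG, Osm, the oncostatin M gene, rose to 28.8 ± 1.32 CPM in TMG, against 22.2 ± 1.16 CPM in Ctrl libraries (log2 0.37 ± 0.07, adjusted p = 0.00541). It was the only called target of the 11, beside 5.15% of all genes called. In TMG_E2 against E2, Bcl2l1, the gene of the survival protein BCL-XL, rose (log2 0.20 ± 0.05, adjusted p = 0.0208) and Pim3 fell (log2 -0.40 ± 0.10, adjusted p = 0.0200). Bcl2l1 lost its call without E2 replicate 1 (adjusted p = 0.0696) or 3 (0.0556) or TMG_E2 replicate 3 (0.0641), and with only the groups compared (0.0528). Pim3 lost its call without E2 replicate 2 (0.0710) or 3 (0.0748) or TMG_E2 replicate 3 (0.0542). In TMG_E2 against TMG, Myc was the fallen target with the smallest p (log2 -1.95 ± 0.08, adjusted p = 5.22e-13), and Fam132b had the smallest p of those that rose (log2 4.65 ± 0.12, adjusted p = 3.10e-16). Fam132b and Csf2rb2 averaged 1.805 and 2.816 CPM in TMG libraries and were tested only because libraries with E2 passed the filter, so a rise with E2 was a condition of their being tested. The genes with the smallest p in the other lists were Jak1 (log2 0.60), Jak3 (-1.75), Inpp5d (0.67), Ptpn6 (-1.51), Gab1 (1.27), Vav1 (-1.87), Csf2rb2 (7.18) and Kit (-2.24). Of these, Jak3 passed the filter through libraries without E2 only, so its fall was a condition of its being tested.

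**Figure D4:**
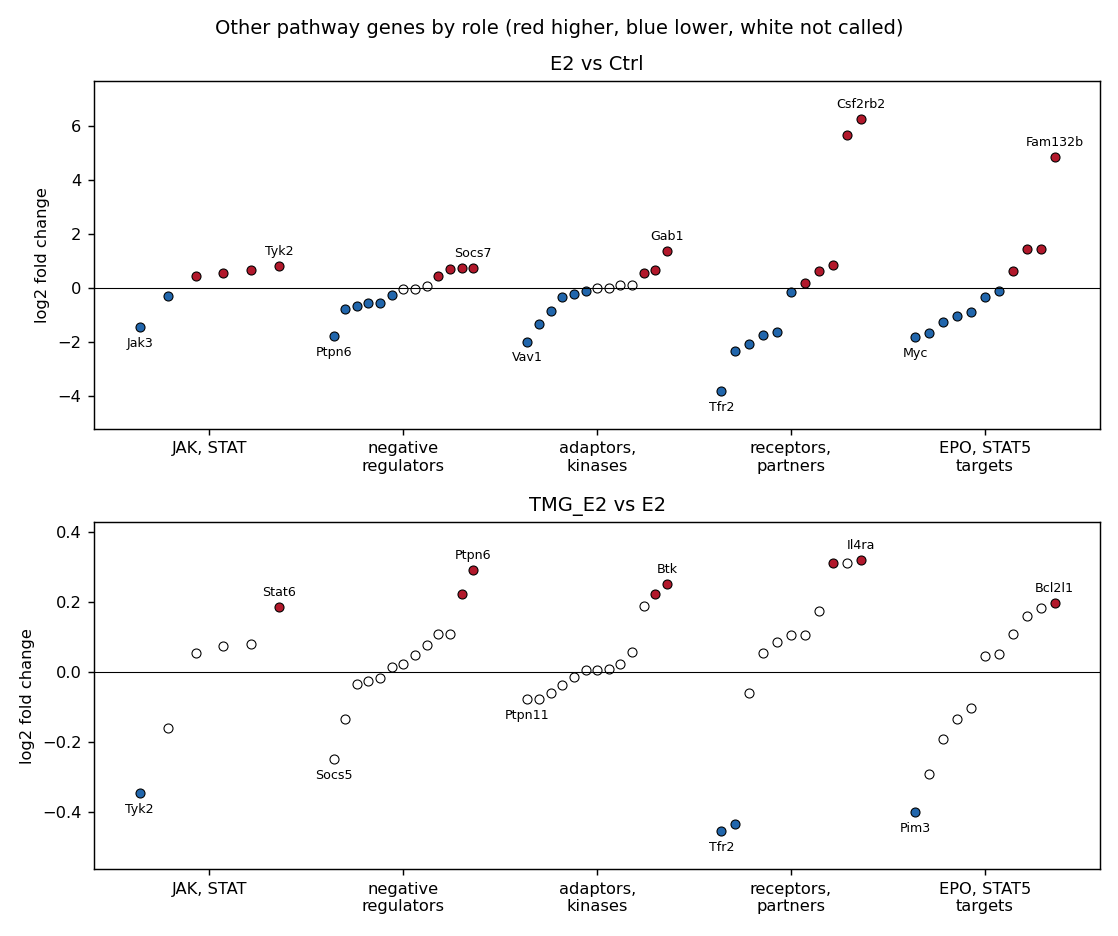
Log2 fold changes of 54 other pathway genes grouped by role, for E2 against Ctrl (top) and TMG_E2 against E2 (bottom), with the lowest and highest gene of each group named. Red genes were called higher, blue lower and white not called; the vertical scales differ, with Csf2rb2 at 6.25 in the top panel and Tfr2 at -0.45 in the bottom panel.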

How the data were processed

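RNA sequencing of 12 libraries was analysed in 4 groups of 3, grouped by sample title. Per the submitters' processing notes and the design text, the authors checked reads with FastQC 0.11.2, quantified them with RSEM 1.2.22 on GRCm38 (Bowtie2 is also named) and compared groups with edgeR 3.14.0 in R 3.2.2. Expected counts, as deposited, come from RSEM and can be fractional. The deposited TPM values are scaled by the authors for length and depth, and were used to compare genes with each other; the deposited FPKM values were not used.

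Counts were rounded and tested across all genes with edgeR 4.0.16 in R 4.3.3 (TMM, a mean per group, quasi-likelihood test, Benjamini-Hochberg over 8273 genes, threshold 0.05). SEs come from the F statistic, and 95% intervals from the t distribution. The alternatives were RLE or no scaling, filterByExpr or no filter, DESeq2 1.42.0, fits of only the groups compared, a replicate block and leaving out each library. The test was checked on simulated data. Of 1.2-fold changes it recovered 65.7% to 73.1% in the comparisons of groups, and 31.3% for the difference between TMG effects. The share of its calls that fell on genes not changed was 3.24% in E2 against Ctrl and 6.19% in TMG against Ctrl. That share was 8.85% in TMG_E2 against E2, 5.79% in TMG_E2 against TMG and 8.64% for the difference.

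The genes and lists were chosen with earlier results of these data known. Named list genes are, per comparison and direction, the called gene with the smallest p. Genes whose direction with E2 was a condition of their being tested are named too. So are the genes most like Epor (3) and each other gene (1).

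Every pair of replicates differed by more than counting noise (a chi-square of 2.41 to 13.1 for each degree of freedom). Pairing was checked by correlating the deviations of libraries that share a number. All correlations exceeded 0.1 in TMG_E2 against E2 (0.334, 0.212 and 0.213) and against TMG (0.480, 0.153 and 0.300), which was read as a hint of pairing that rests on the data alone. The main fit held no replicate block, so its p-values do not take such pairing into account. A floor of 3 counts is 0.129 to 0.171 CPM. Positions are from RefSeq on GRCm38.p6.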

Additional observations from a re-analysis of the deposited data

Results flagged for a closer look

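Stat3 stood out because its response to TMG differed between cells with and without E2 in a test of that difference. The TMG effect with E2 minus the TMG effect without E2 was log2 0.28 ± 0.06 (edgeR adjusted p = 0.0452). Stat3 was higher in TMG_E2 than in E2 in 3 of 3 libraries and overlapped between TMG and Ctrl. In 12 of 18 alternative fits the difference was no longer called. The TMG_E2 libraries also differed more among themselves than other replicates did (chi-square per degree of freedom 8.66 to 13.1, against 2.41 to 4.17 in the other groups), and the part of this in the result was not tested.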

How the results depend on the processing

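For the 9 genes, 538 of 565 values under the alternatives kept their side of the threshold. Of the rest, 19 lost a call, 8 gained one and 0 changed sign with a call. Some values that were not called did change sign between fits. The difference between TMG effects for Cish, for example, lay between log2 -0.273 and 0.086. The 8 and 8 genes called for E2 without and with TMG were 8 and 7 to 8 when a library was left out, and the 2 and 2 called for TMG were 2 to 3 in both settings. The call of 1 gene for the difference between TMG effects became 0 with library size alone and with filterByExpr, and was 0 to 1 when a library was left out. Over all genes, TMG against Ctrl gave 426 calls, 749 with only the groups compared, 675 with the replicate block and 196 to 257 with a library left out. TMG_E2 against E2 gave 1055, 472 with only the groups compared and 656 to 1160 with a library left out. The difference gave 77 calls, 48 with filterByExpr, 178 with no filter, 171 with the replicate block and 18 to 161 with a library left out. The causes were not tested. Of the 9 genes, only Cish changed its call with the replicate block, in the 2 TMG comparisons. Libraries were fitted without that block, and 11 of 12 libraries correlated best with one of their own number, a hint from the data and not from the design. In TMG against Ctrl, where the numbers did not meet the rule for pairing (0.102, 0.0528 and 0.207), the block gave Cish an adjusted p of 0.0178. Depth limits Socs3 most.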

Other observations

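Socs1, an inhibitor of JAK kinases that did not pass the expression filter, was picked after its values were seen. Over 3 libraries each it had 3 counts in TMG_E2, 2 in E2, 104 in TMG and 142 in Ctrl libraries. Mean levels were 0.0448 ± 0.0776 CPM in TMG_E2, 0.0312 ± 0.054 CPM in E2, 1.80 ± 0.485 CPM in TMG and 2.19 ± 0.358 CPM in Ctrl libraries (SD, n = 3), so it was low without E2 and close to 0 with it. Stat4 had 0 counts in all 12 libraries.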
